A study of Glycine max with 44 samples.

Results

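Root tips of the aluminium-tolerant soybean PI 416937 were compared with those of the aluminium-sensitive soybean Young after 72 h in solution with 10 µM aluminium (Al). The arrays were chosen by their titles, 3 for PI 416937 with Al and 3 for Young with Al, which makes 6 of the 44 arrays of the series. The first group held PI 416937 grown with 10 µM Al and the second Young grown with 10 µM Al, both for 72 h. A further 6 arrays, 3 of PI 416937 and 3 of Young at 72 h with 0 µM Al, were used to tell which differences existed without Al. All plants grew in hydroponics in a growth chamber, and the sample was the last centimetre of the tap root. RNA was copied from its poly(A) end and hybridised to an Affymetrix soybean array, on which a probe set reports a transcript or a family of similar transcripts. The labels mention no pooling of plants and do not say that replicates came from separate cultures, so a p-value here reflects only how much these arrays vary, which may be technical. Titles of all PI 416937 arrays carry a letter after the replicate number that the Young titles lack, and the sources used here do not explain it, so whatever it marks and the genotype cannot be told apart.

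In acid solution Al is present as a soluble cation that stops root growth within hours, and the root tip is the site of damage. Tolerant plants are known to release citrate or malate from the tip, which bind Al outside the cell. The zinc finger protein STOP1 is known from Arabidopsis to switch on the transporters for this release. Root cells exposed to Al also make reactive oxygen and turn on genes shared with pathogen defence and wounding, among them WRKY and NAC transcription factors, glutathione S-transferases, pathogenesis-related (PR) proteins and the enzymes of isoflavonoid phytoalexins.

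Values are given as log2(intensity + 16) from the intensities the authors deposited, so a difference of 1 is a 2-fold change of intensity plus 16, and changes of dim probe sets are understated. Background, the 95th percentile of the means of oomycete and nematode probe sets on the same array, was 4.41. A total of 35289 soybean probe sets had a mean above it in at least 1 of the 16 groups and were tested, 93.9% of 37593. Differences are PI 416937 minus Young, with the standard error of the limma fit after ±, and all p-values are limma's. Each probe set has 1 estimate of variance, drawn from the 16 groups of the series. Where most groups lie at background, this estimate can understate the spread of a group with signal. The standard error and p can then be too small. The threshold for a call was an adjusted p of 0.05, by the Benjamini-Hochberg method across the 35289. The annotation names exactly 1 gene for 8418 of them, so most calls have no gene name here.

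The genotype labels were checked with 47 probe sets that were higher and 18 that were lower in PI 416937 in every comparison from 2 to 48 h. The first set averaged 8.81 to 9.02 in the 6 PI 416937 arrays of 72 h and 6.22 to 6.42 in the 6 Young arrays. The second averaged 6.03 to 6.30 in PI 416937 and 8.41 to 8.77 in Young, so no array of 72 h went against its genotype label. The array labelled PI 416937 without Al, replicate 1, stood apart in another way. It correlated best with Young with Al, replicate 3 (r = 0.981 over the tested probe sets), and less well with its own group (highest r = 0.961). Its level of WRKY30, a gene that was high in Young with Al, was 7.85, against 4.43 and 4.46 in the 2 other arrays of its group. Other arrays of 72 h also correlated best with an array of another group, though by less. For PI 416937 with Al, replicates 1 and 2, the best matches were untreated PI 416937 replicates 3 and 2 of 72 h. Their r were 0.980 and 0.995, against 0.979 and 0.993 in their own group. For Young with Al, replicates 1 and 2, they were Young with Al of 48 h, replicates 3 and 2 (r = 0.990 and 0.986, against 0.988 and 0.977). Untreated PI 416937 replicate 2 matched PI 416937 with Al, replicate 2, best (r = 0.995, against 0.988). The main counts that rest on the array that stood apart are given with and without it. The sets above check the genotype only, and whether the treatment labels of the PI 416937 arrays are right was not tested. An exchange of labels with a PI 416937 array with Al would also touch the main contrast. Leaving out the untreated array does not address that. Of 10 probe sets for root-expressed genes, 8 were above background in each group with Al.

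The 2 genotypes differed widely after 72 h of Al. limma called 4028 of 35289 probe sets, 11.4%, of which 1868 were higher in PI 416937 (5.29%) and 2160 lower (6.12%). The lower ones differed by more: their median difference was -1.55, 803 of them differed at least 4-fold and 180 at least 16-fold. The higher ones had a median of 0.76, with 91 past 4-fold and 6 past 16-fold. The median over all tested probe sets was 0.03. Among probe sets with 1 gene, the lower calls covered 560 genes and the higher calls 343. Among the 23350 oomycete and nematode probe sets, which should find little target in these roots, 39 (0.167%) were called.

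Single arrays weighed on these counts. Without Young with Al, replicate 2, 1492 probe sets were called, without Young with Al, replicate 3, 2464, and without PI 416937 with Al, replicate 1, 2380. With each of the other arrays of 72 h left out in turn the count lay between 2975 and 4601. Fitting only the groups compared gave 1797 calls, 560 higher and 1237 lower. Adding the replicate number to that fit as a block gave 297 calls, 66 higher and 231 lower. Quantile normalisation turned the balance, with 2443 higher and 2059 lower.

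Without Al the same genotypes differed far less often by this test. At 72 h, 458 probe sets (1.3%) were called, 228 higher (0.646%) and 230 lower (0.652%) in PI 416937. Without the untreated PI 416937 replicate 1 the numbers were 323, 173 and 150. Leaving out untreated Young replicate 2 or 3 gave 277 or 286. Of the 1868 probe sets higher in PI 416937 with Al, 169 were also called higher without Al, which is 9.05% of the calls with Al and 74.1% of those without. Of the 2160 lower ones, 122 were also called lower without Al, 5.65% of the calls with Al and 53% of those without. Without the untreated PI 416937 replicate 1 the shared calls were 149 of 2043 higher and 106 of 2349 lower ones. These 2 comparisons share no array.

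The difference between the genotype contrasts with and without Al was tested directly. It was called for 605 probe sets (1.71%), 92 above 0 (0.261%) and 513 below 0 (1.45%). This test uses the array that stood apart. Without it 169 were called (0.479%), 30 above 0 (0.085%) and 139 below 0 (0.394%). Other single arrays moved the count to between 198 (without Young with Al, replicate 2) and 1073 (without Young with Al, replicate 1). Fitting the 12 arrays of 72 h alone gave 114, 19 above 0 and 95 below 0. Adding the replicate number to that fit as a block gave 6, 1 above 0 and 5 below 0. The count was 295 without Young with Al, replicate 3, 1031 without untreated PI 416937 replicate 3, and 366, 309 and 341 without untreated Young replicates 1, 2 and 3. Of the 2160 probe sets lower in PI 416937 with Al, 498 were called for this difference in the same direction. Without the array in question the number was 137 of 2349 (5.83%).

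**Figure D1:**
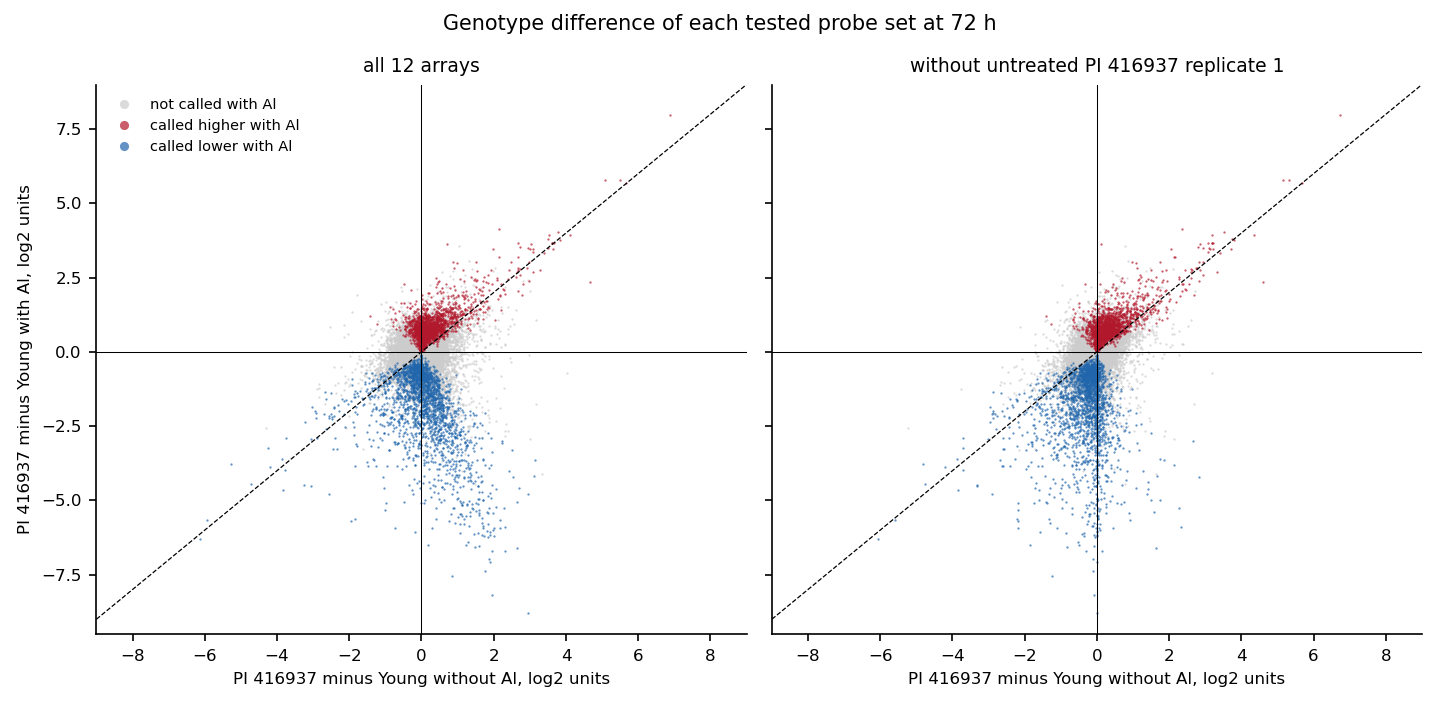
Each point is a tested probe set at 72 h, with the difference PI 416937 minus Young with Al on the vertical axis and without Al on the horizontal axis, in log2 units, with all 12 arrays on the left and without the untreated PI 416937 replicate 1 on the right. Red points were called higher and blue points lower with Al, and the dashed line marks equal differences. Some red points at the upper right and blue points at the lower left follow the line. Over the blue points the median difference without Al is 0.03 in the left panel and -0.21 in the right one.

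A set of probe sets defined on other arrays held 531 of the 2160 lower calls. Most of the lower calls thus lie outside it. At 48 h, 637 probe sets were called higher in Al-treated than in untreated roots, in PI 416937 and in Young alike. Their mean per array at 72 h was 6.56, 6.60 and 6.77 in PI 416937 with Al, against 8.56, 9.53 and 9.34 in Young with Al. Without Al it was 8.64, 6.72 and 6.53 in PI 416937 and 6.74, 6.77 and 6.76 in Young. The 3 PI 416937 arrays with Al thus lay at the level of the untreated roots and below every Young array with Al, while the high value of the untreated PI 416937 group came from the array that stood apart. Of the 637, 531 (83.4%, against 6.12% of all tested) were called lower in PI 416937 with Al at 72 h and 0 higher, and at an unadjusted p under 0.05 limma gave 594 lower and 0 higher. Their median difference was -2.23 with Al and 0.44 without, or -0.065 without Al when the array that stood apart was left out. With single Al arrays left out, between 359 (without Young replicate 2) and 545 were called lower. For the difference between the contrasts 301 of the 637 were called below 0, and 106 without the untreated PI 416937 replicate 1. Of 28 probe sets lower in Al-treated than untreated roots of each genotype at 48 h, 8 (28.6%, against 5.29% of all tested) were called higher in PI 416937 at 72 h.

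At 12 and 48 h the values of the genotypes with Al overlapped for these 637 probe sets. At 48 h, the time that chose them, their means were 8.62 to 9.83 in PI 416937 with Al and 9.14 to 9.64 in Young with Al. At 12 h they were 7.38 to 8.21 in PI 416937 with Al and 7.38 to 8.83 in Young with Al. At 2 h, with 2 arrays per group, they were 7.57 to 7.81 in PI 416937 with Al and 8.00 to 8.24 in Young with Al. These do not overlap. Untreated roots of 2 h lay at 7.87 to 8.08 in PI 416937 and 7.46 to 8.10 in Young. PI 416937 with Al was thus below its untreated arrays, and Young with Al overlapped its own. Whether the gap at 2 h is a response to Al was not tested. Within genotypes at 72 h, Al against no Al called 14 probe sets in PI 416937 (0.0397%), 13 higher (0.0368%) and 1 lower (0.00283%), and 21 without the array that stood apart. In Young it called 1306 (3.7%), 1059 higher (3%) and 247 lower (0.7%).

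**Figure D2:**
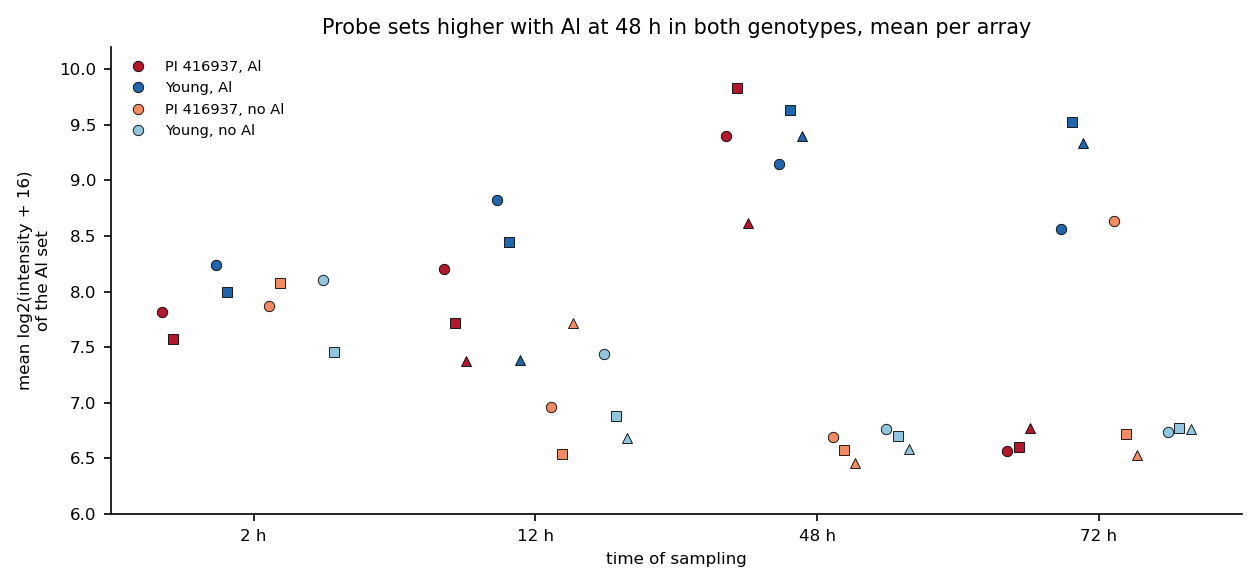
Each point is an array, at its mean log2(intensity + 16) over the 637 probe sets raised by Al in PI 416937 and in Young at 48 h, by time of sampling, with circles, squares and triangles for replicates 1, 2 and 3. At 72 h the 3 PI 416937 arrays with Al lie at 6.56 to 6.77 and the 3 Young arrays with Al at 8.56 to 9.53. The untreated PI 416937 replicate 1 lies at 8.64, among the Young arrays with Al.

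Transcription factors of stress were the first named group. WRKY proteins bind W-box elements in the promoters of stress and defence genes. Of 104 WRKY probe sets in 53 genes, 28 in 17 genes were lower in PI 416937 with Al (26.9%, against 6.12% of all tested) and 1, WRKY24, named after its value was seen, was higher (0.66 ± 0.22, adjusted p = 0.0498). The list's median was -0.42, against 0.03 over all tested probe sets. The count of lower ones was 16 without PI 416937 with Al, replicate 1, and 18 without Young with Al, replicate 2. Without Al limma called 0 of the 104 (3 higher and 1 lower at an unadjusted p under 0.05), where 1.3% of all tested were called. At so low a share, 0 calls do not show that the list was equal without Al. For the difference between the contrasts 10 were called below 0, against 1.45% of all tested. Without the untreated PI 416937 replicate 1 it was 9, against 0.394% of all tested.

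WRKY30 (probe set GmaAffx.12883.1.S1_at) read 4.42, 4.46 and 4.44 in PI 416937 with Al, against 9.53, 10.77 and 9.90 in Young with Al. The difference was -5.63 ± 0.63 (adjusted p = 5.91e-07), and its other probe set was also called lower. All PI 416937 values lay at background, so the size is limited by it, and all Young values lay far above. Without Al it read 7.85, 4.43 and 4.46 in PI 416937 and 4.42, 4.39 and 4.40 in Young. At 12 h with Al it was already called lower in PI 416937, by -3.59 (adjusted p = 0.0013). The means then were 4.66 ± 0.17 in PI 416937 and 8.25 ± 1.19 in Young. At 48 h with Al the means were 10.08 ± 1.12 in PI 416937 and 10.73 ± 0.45 in Young (SD, n = 3 each). Both genotypes therefore had the transcript at 48 h, and the test called no difference then (adjusted p = 1).

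WRKY57 (Gma.4281.1.S1_at) read 5.46, 5.32 and 5.48 in PI 416937 with Al and 9.80, 10.96 and 10.58 in Young with Al, a difference of -5.03 ± 0.50 (adjusted p = 7.23e-08). The groups did not overlap. Its untreated values were 8.99, 5.80 and 6.39 in PI 416937 and 5.65, 5.79 and 5.76 in Young. WRKY57 too was already called lower with Al at 12 h (-3.31, adjusted p = 0.000136). WRKY63 differed by -1.96 ± 0.25 (adjusted p = 5.1e-06), with PI 416937 at 4.42 to 4.43 and Young at 5.71 to 7.13 with Al, and all untreated arrays between 4.42 and 4.44. It was thus at background everywhere at 72 h except in Young with Al, and its other tested probe set was not called. The SD of WRKY63 with Al was 0.71 in Young and 0.004 in PI 416937. The ± from 16 groups can thus understate the spread in Young. For these 3 genes the difference between the contrasts was called with and without the array that stood apart, at -6.81 and -5.67 for WRKY30, -6.35 and -5.39 for WRKY57, and -1.97 both ways for WRKY63 (largest adjusted p = 0.011). Further members, named after their values were seen, were WRKY17 (-5.04 ± 0.74), WRKY53 (-4.16 ± 0.77), WRKY58 (-3.96 ± 0.57) and WRKY21 (-2.96 ± 0.45), with adjusted p from 3.18e-05 to 0.000613.

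NAC proteins regulate stress responses, senescence and root development. At an unadjusted p under 0.05 limma gave 18 lower and 1 higher of 40 NAC probe sets, with a median of -0.87. Called were 6 lower in PI 416937 (15%, against 6.12% of all tested) and 0 higher. The lower count was 3 without PI 416937 replicate 1, Young replicate 2 or Young replicate 3, and 10 without Young replicate 1 (all with Al). NAC6 (GmaAffx.13806.1.S1_at) read 5.08, 5.04 and 5.47 in PI 416937 with Al and 8.90, 9.54 and 9.98 in Young with Al, a difference of -4.27 ± 0.79 (adjusted p = 0.000662). Its untreated values were 9.32, 5.80 and 4.89 in PI 416937 and 6.05, 6.50 and 6.39 in Young. NAC018 differed by -3.64 ± 0.73 (adjusted p = 0.00139) and LOC100816770, synonym NAC55, by -2.90 ± 0.55 (adjusted p = 0.000768). In all 3 genes every PI 416937 array with Al was below every Young array with Al. The difference between the contrasts was called for all 3, and for none of them without the untreated PI 416937 replicate 1 (adjusted p = 0.14, 0.14 and 0.13).

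The MYB and AP2/ERF lists held calls in both directions. Of 98 MYB probe sets, 5 were higher (5.1%, against 5.29% of all tested) and 3 lower (3.06%, against 6.12%), with a median of 0.011. MYB73 was lower by 2 probe sets, with values of 5.20, 5.75 and 6.01 in PI 416937 with Al and 8.71, 9.11 and 7.22 in Young with Al for the first (-2.70 ± 0.58, adjusted p = 0.00249). MYB57 (1.22 ± 0.24, adjusted p = 0.000978) and MYB138 (1.33 ± 0.32, adjusted p = 0.00601) were higher, each by 2 probe sets. The call of MYB138 was lost without Young with Al, replicate 2 (0.85, adjusted p = 0.116), and the MYB list then had 1 higher call. Without Young with Al, replicate 1, the list had 6 lower calls. Of 21 AP2/ERF probe sets, 3 were higher (14.3%, against 5.29% of all tested) and 2 lower (9.52%, against 6.12%). The list had 1 higher call left without Young with Al, replicate 2. The ethylene response factors EREBP1 and ERF5 were lower by -2.00 ± 0.32 and -1.61 ± 0.28 (adjusted p = 0.000139 and 0.00035), and ERF3 was higher by 0.49 ± 0.09 (adjusted p = 0.000672). EREBP1 read 9.59, 9.52 and 9.24 in PI 416937 with Al and 11.35, 11.54 and 11.46 in Young with Al, 2 narrow and separate ranges.

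Of 33 probe sets of heat shock factors and proteins, 6 were lower (18.2%, against 6.12% of all tested) and 0 higher. The lower count was 1 without Young with Al, replicate 2, and 2 without PI 416937 with Al, replicate 2. HSF-35 read 5.26, 5.27 and 5.29 in PI 416937 with Al, against 6.92, 7.55 and 7.25 in Young with Al (-1.97 ± 0.27, adjusted p = 1.88e-05). Without Al its difference was -0.995 (adjusted p = 0.0703), and without the array that stood apart it was -1.25 and called (adjusted p = 0.0263). HSF-01 was lower by -3.05 ± 0.72 (adjusted p = 0.00531) and the chaperone HSP90-1 by -1.13 ± 0.32 (adjusted p = 0.0189). Both calls were lost without Young with Al, replicate 2 (adjusted p = 0.0597 and 0.161), and that of HSP90-1 also without PI 416937 with Al, replicate 2 (adjusted p = 0.0826). HSP90-1 had 7 tested probe sets, of which 1 was called, and without Al that one differed by -1.20 (adjusted p = 0.0533), or -0.80 without the array that stood apart (adjusted p = 0.523). Of 103 bZIP probe sets 5 were higher (4.85%, against 5.29% of all tested), or 2 without Young with Al, replicate 2, and 3 without Young with Al, replicate 3. None was called lower, though limma gave 5 lower at an unadjusted p under 0.05. BZIP117 (1.11 ± 0.28, adjusted p = 0.00975) and BZIP77 (0.87 ± 0.23, adjusted p = 0.0136) were among the 5. Both calls were lost without Young replicate 2, and that of BZIP77 also without PI 416937 replicate 2 or Young replicate 3 (adjusted p from 0.063 to 0.111).

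**Figure D3:**
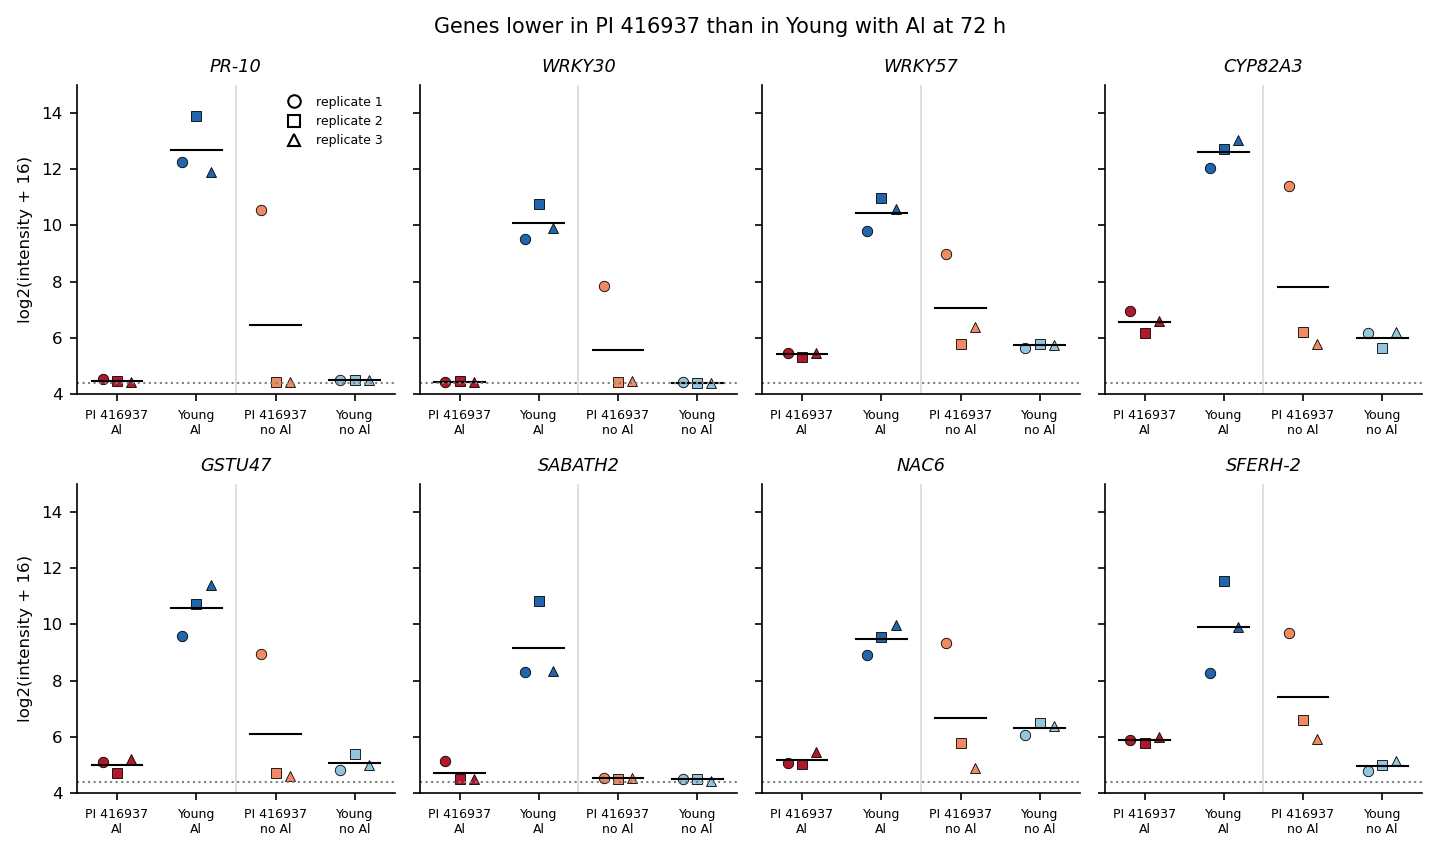
Values of log2(intensity + 16) at 72 h of 8 genes lower in PI 416937 with Al, with each array as a point (circle, square and triangle for replicates 1, 2 and 3), the group mean as a bar and background at 4.41 as a dotted line. In each panel the 3 PI 416937 points with Al lie below the 3 Young points with Al. In all panels but SABATH2 the untreated PI 416937 replicate 1 lies above the 2 others of its group.

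Of 23 probe sets of pathogenesis-related and defence genes, 9 in 8 genes were lower in PI 416937 with Al (39.1%, against 6.12% of all tested). Called higher were 0, against 5.29% of all tested. At an unadjusted p under 0.05 limma gave 14 lower and 0 higher. The list's median was -1.25. The count of lower calls was 5 without PI 416937 with Al, replicate 1, and 5 without Young with Al, replicate 2. Without Al limma called 0 of the 23 at 72 h, where 1.3% of all tested were called. At an unadjusted p under 0.05 it gave 1 higher and 4 lower. PR-10 (GmaAffx.91442.1.S1_at, synonym SAM22), of a family of small ribonuclease-like defence proteins, read 4.55, 4.47 and 4.43 in PI 416937 with Al and 12.26, 13.87 and 11.91 in Young with Al. The difference was -8.20 ± 1.60 (adjusted p = 0.00103). All PI 416937 values were near background, and no Young array with Al came close to them. Without Al, PR-10 read 10.56, 4.43 and 4.43 in PI 416937 and 4.51, 4.52 and 4.52 in Young. At 48 h with Al the means were 11.52 ± 1.23 in PI 416937 and 11.46 ± 0.92 in Young (SD, n = 3 each), with no difference called. The difference between its contrasts at 72 h was called with all arrays (-10.16, adjusted p = 0.015) but not without the array that stood apart (-8.11, adjusted p = 0.097).

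PR1-7, of the PR-1 family secreted on infection, read 4.41, 4.42 and 4.43 in PI 416937 with Al and 6.78, 9.31 and 8.19 in Young with Al (-3.67 ± 0.59, adjusted p = 0.000126). Its SD with Al was 1.27 in Young and 0.006 in PI 416937, so its ± can understate the spread in Young. EDS1-2, of the EDS1 family that relays resistance signals in Arabidopsis, read 9.06, 9.02 and 9.03 in PI 416937 with Al and 11.22, 12.14 and 12.08 in Young with Al (-2.78 ± 0.47, adjusted p = 0.000258). Groups did not overlap for either. Its partner in Arabidopsis, PAD4, was lower by -1.25 ± 0.38 (adjusted p = 0.031), as were NDR1b (-2.93 ± 0.58, adjusted p = 0.00111) and the chitinase CHIA1 (-3.05 ± 0.75, adjusted p = 0.00726), all 3 named after their values were seen.

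SABATH2 (Gma.12911.1.A1_s_at), of a family of methyltransferases that act on small acids such as salicylate and jasmonate, followed another course. It read 5.14, 4.52 and 4.52 in PI 416937 with Al and 8.30, 10.82 and 8.35 in Young with Al, a difference of -4.43 ± 0.51 (adjusted p = 8.68e-07). Its SD with Al was 1.44 in Young and 0.36 in PI 416937, so its ± can understate the spread in Young. All 6 untreated arrays of 72 h, the one that stood apart included, lay between 4.44 and 4.53. At 48 h with Al it averaged 4.72 ± 0.32 in PI 416937 and 9.87 ± 1.26 in Young (SD, n = 3 each) and was already called, by -5.15 (adjusted p = 8.2e-08). The difference between the contrasts at 72 h was -4.47, and -4.46 without the untreated PI 416937 replicate 1 (adjusted p = 0.00096 and 0.0035).

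Glutathione S-transferases couple glutathione to toxic or oxidised compounds. Of 58 probe sets in 38 genes, 22 in 17 genes were lower in PI 416937 with Al (37.9%, against 6.12% of all tested). Called higher were 0, against 5.29% of all tested. At an unadjusted p under 0.05 limma gave 27 lower and 0 higher. The list's median was -0.45. The count of lower calls was 12 without Young with Al, replicate 2. GSTU47 (GmaAffx.93206.1.S1_x_at) read 5.10, 4.73 and 5.23 in PI 416937 with Al and 9.59, 10.73 and 11.40 in Young with Al (-5.56 ± 1.12, adjusted p = 0.00147). LOC547581, synonym GSTU21, read 9.45, 10.56 and 10.31 in PI 416937 with Al and 13.93, 14.85 and 14.55 in Young with Al (-4.34 ± 0.84, adjusted p = 0.000982). Both are of the tau class, the plant-specific class to which most of the called members belong by name. In each gene the PI 416937 arrays with Al lay near the range of untreated roots, which for GSTU47 was 4.60 and 4.72 in PI 416937 (8.96 in the array that stood apart) and 4.82 to 5.39 in Young.

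1 member was also called without Al. GSTU28, named after its values were seen, was lower by -2.02 ± 0.43 with Al (adjusted p = 0.00239) and by -1.84 without (adjusted p = 0.021). GSTU13 read 7.02, 7.35 and 7.50 in PI 416937 with Al and 8.98, 9.73 and 9.31 in Young with Al (-2.05 ± 0.39, adjusted p = 0.000764). With Al it was also called lower at 2, 12 and 48 h (-1.93, -1.65 and -1.77, adjusted p = 0.026, 0.027 and 0.013). Without Al it was not called, at -0.37, -1.13, -1.42 and -1.08 at 2, 12, 48 and 72 h (adjusted p = 0.933, 0.33, 0.098 and 0.267). For the difference between the contrasts 5 of the 58 were called below 0, and 0 without the untreated PI 416937 replicate 1, where 0.479% of all tested were called.

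Antioxidant enzymes went in both directions, with 3 of 27 probe sets higher and 3 lower (11.1% each, against 5.29% and 6.12% of all tested). SODB2 (synonym FeSOD-2) and SODB encode iron superoxide dismutases, enzymes that turn superoxide into hydrogen peroxide and reside mainly in plastids. SODB2 read 9.97, 9.20 and 9.77 in PI 416937 with Al and 7.21, 4.94 and 7.17 in Young with Al (3.21 ± 0.58, adjusted p = 0.000504). SODB read 10.62, 9.92 and 10.44 in PI 416937 with Al and 8.30, 6.25 and 8.21 in Young with Al (2.74 ± 0.61, adjusted p = 0.00359). Young with Al, replicate 2, was the lowest array for both genes, and without it the call of SODB was lost (2.07, adjusted p = 0.0629). Without Al SODB2 averaged 9.27 ± 0.40 in PI 416937 and 7.13 ± 0.05 in Young (SD, n = 3 each), a difference of 2.15 that was not called (adjusted p = 0.061). The ascorbate peroxidase APX2, which removes hydrogen peroxide, was lower by -1.11 ± 0.23 (adjusted p = 0.00189).

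Ferritin stores iron in plastids. SFERH-2 was lower by all 4 of its probe sets. With the copper pump gene HMA8 this made 5 lower of 15 in the list of ferritin and metal carriers (33.3%, against 6.12% of all tested). The first of SFERH-2 (Gma.2505.1.S1_a_at) read 5.89, 5.77 and 6.01 in PI 416937 with Al and 8.26, 11.55 and 9.90 in Young with Al (-4.01 ± 0.92, adjusted p = 0.0044). The Young values spread over more than 3 log2 units, and without Young replicate 2 the call was lost (-3.19, adjusted p = 0.0644), leaving 1 lower call in the list. Its untreated values were 9.71, 6.60 and 5.92 in PI 416937 and 4.81, 4.99 and 5.14 in Young. HMA8 read 6.92, 7.01 and 7.09 in PI 416937 with Al and 7.59, 8.34 and 7.98 in Young with Al (-0.96 ± 0.19, adjusted p = 0.0015).

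Phenylpropanoid and isoflavonoid genes supply lignin, isoflavones and glyceollins, the phytoalexins of soybean. Of 83 probe sets in 43 genes, 18 in 15 genes were lower in PI 416937 with Al (21.7%, against 6.12% of all tested). Called higher were 0, against 5.29% of all tested. At an unadjusted p under 0.05 limma gave 29 lower and 5 higher. The list's median was -0.29. The count of lower calls leaned on single arrays. It was 5 without Young replicate 2, 8 without PI 416937 replicate 1, and 11 without PI 416937 replicate 2 or Young replicate 3 (all with Al). IFR, an isoflavone reductase on the way to glyceollins, read 6.14, 6.05 and 6.86 in PI 416937 with Al and 9.46, 10.44 and 9.45 in Young with Al (-3.44 ± 0.62, adjusted p = 0.000477). LOC547659, synonym IFR1, was lower by -2.42 ± 0.46 (adjusted p = 0.000867), with PI 416937 at 8.99, 11.44 and 11.57 and Young at 12.54, 13.75 and 12.97. Replicate 1 of PI 416937 was the lowest here.

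Further members that were called lower, named after their values were seen, were chalcone synthase CHS1 (-2.61 ± 0.59, adjusted p = 0.00387), isoflavone synthase IFS2 (-1.22 ± 0.32, adjusted p = 0.0117), the prenyltransferase G4DT (-3.51 ± 0.94, adjusted p = 0.014) and PTS1, a pterocarpan synthase (-4.20 ± 0.88, adjusted p = 0.00188). CYP93A1, which hydroxylates the pterocarpan before prenylation, read 5.18, 5.36 and 5.16 in PI 416937 with Al and 9.39, 10.88 and 8.98 in Young with Al (-4.52 ± 0.92, adjusted p = 0.00148). CYP93E1, similar by name and called higher by 2 probe sets, is counted with the cytochrome P450 genes and not in this list. Without Al limma called 0 of the 83 (8 lower and 0 higher at an unadjusted p under 0.05), where 1.3% of all tested were called. For the difference between the contrasts 2 were called below 0, against 1.45% of all tested. Without the untreated PI 416937 replicate 1 it was 0, against 0.394% of all tested.

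Among 52 cytochrome P450 probe sets, 12 in 6 genes were lower (23.1%, against 6.12% of all tested) and 3 higher (5.77%, against 5.29%). With Al, the higher count was 0 without PI 416937 replicate 1 and 1 without PI 416937 replicate 3, Young replicate 2 or Young replicate 3. CYP82A3 (Gma.3136.1.S1_s_at) read 6.94, 6.17 and 6.61 in PI 416937 with Al and 12.04, 12.70 and 13.04 in Young with Al (-6.02 ± 1.34, adjusted p = 0.0033), and 3 of its 4 probe sets were called. CYP82A2 read 4.67, 4.69 and 6.25 in PI 416937 with Al and 10.74, 11.41 and 10.49 in Young with Al (-5.68 ± 1.22, adjusted p = 0.0025), by all 3 of its probe sets. Both belong to the CYP82A group known in soybean from elicitor-treated cells. At 48 h with Al, CYP82A3 averaged 12.69 ± 0.49 in PI 416937 and 12.82 ± 0.85 in Young (SD, n = 3 each). The triterpenoid oxidase CYP93E1, of soyasaponin synthesis, was higher by 2 probe sets (1.16 ± 0.32, adjusted p = 0.0182, for the first), and was named after its values were seen.

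Of 39 lipoxygenase and jasmonate probe sets 2 were lower (5.13%, against 6.12% of all tested), or 0 without Young with Al, replicate 2. They were LOC100778559, synonym JAZ1, a repressor of jasmonate signals (-2.20 ± 0.59, adjusted p = 0.0142), and LOC100800036, synonym AOC2, an allene oxide cyclase of jasmonate synthesis (-1.85 ± 0.51, adjusted p = 0.0158). Of the 4 tested probe sets of LOC100778559, 1 was called. The call of LOC100778559 was also lost without PI 416937 with Al, replicate 1 (adjusted p = 0.0503), and that of LOC100800036 without its replicate 2 (adjusted p = 0.0705). limma called 0 of 6 ethylene, 12 auxin and other hormone, and 11 cytoskeleton and cell division probe sets, with 0, 2 and 1 of them at an unadjusted p under 0.05. The hormone list had 1 higher call without PI 416937 with Al, replicate 3, or Young with Al, replicate 1, and the cytoskeleton list 1 higher call without Young with Al, replicate 1. Of 31 probe sets of calcium and kinase signalling, 7 were lower (22.6%, against 6.12% of all tested) and 3 higher (9.68%, against 5.29%). Left out in turn, PI 416937 replicate 3 gave 4 lower, Young replicate 2 gave 2 lower and 1 higher, and PI 416937 replicate 1 or Young replicate 3 gave 5 lower and 1 higher (all with Al).

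In that list the receptor-like kinase RLK1 was higher, at 10.47, 10.09 and 9.91 in PI 416937 with Al and 9.13, 8.64 and 8.83 in Young with Al (1.29 ± 0.19, adjusted p = 3.9e-05). The calmodulin SCAM-3, a calcium sensor, was lower by all 3 of its probe sets (-0.996 ± 0.213, adjusted p = 0.00227, for the first), and so was the calcium-dependent kinase CDPK-GAMMA (-0.78 ± 0.18, adjusted p = 0.00385). SCAM-3 read 9.77, 10.01 and 10.18 in PI 416937 with Al and 10.80, 11.39 and 10.76 in Young with Al. The SCAM-3 groups do not overlap, and its difference is about 2-fold.

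Transport and nutrition genes gave few calls, and most rested on single arrays. Of 37 aquaporin probe sets, 2 were lower and 2 higher (5.41% each, against 6.12% and 5.29% of all tested), and 0 and 0 without Young with Al, replicate 2. Without Al 2 of the 37 were called lower, where 0.652% of all tested were called lower. Without any single PI 416937 array with Al, 1 was higher, and without replicate 1 of them 1 was lower. The plasma membrane water channels PIP2-9 (-1.08 ± 0.27, adjusted p = 0.00892) and PIP1-8 (-0.999 ± 0.291, adjusted p = 0.0229) were lower, and PIP1-7 (0.88 ± 0.22, adjusted p = 0.00875) higher. Without Young with Al, replicate 2, adjusted p were 0.109, 0.11 and 0.0592. PIP1-8 read 10.52, 11.89 and 12.15 in PI 416937 with Al and 12.46, 12.64 and 12.46 in Young with Al, and without the low PI 416937 replicate 1 its difference was -0.50 (adjusted p = 0.266). Its call was also lost without Young replicate 3 (adjusted p = 0.0559), and that of PIP1-7 without PI 416937 replicate 3 (adjusted p = 0.0579).

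The sugar efflux carriers SWEET29 (-2.41 ± 0.63, adjusted p = 0.0115) and SWEET34 (-1.52 ± 0.47, adjusted p = 0.0341) were the 2 lower of 16 sugar probe sets (12.5%, against 6.12% of all tested). The list had 1 call left without PI 416937 with Al, replicate 2 or 3, and 0 without any of the 3 arrays named next. SWEET29 read 5.67, 6.96 and 6.31 in PI 416937 with Al and 7.08, 9.94 and 9.17 in Young with Al. Neither call held without PI 416937 replicate 1, Young replicate 2 or Young replicate 3 (all with Al), with adjusted p from 0.0579 to 0.19, and that of SWEET34 was also lost without PI 416937 replicate 2 or 3 (adjusted p = 0.0699 and 0.105). Plastid glutamine synthetase GS-2, which assimilates ammonium, read 9.21, 8.54 and 8.95 in PI 416937 with Al and 7.13, 6.71 and 6.89 in Young with Al (1.98 ± 0.54, adjusted p = 0.0144). Its call was lost without Young replicate 2 (1.88, adjusted p = 0.0774) and without PI 416937 replicate 1 (1.83, adjusted p = 0.0649).

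Of 29 nitrogen and ureide probe sets, 3 were higher (10.3%, against 5.29% of all tested) and 2 lower (6.9%, against 6.12%). Left out in turn, PI 416937 replicate 1 gave 1 higher and 0 lower, PI 416937 replicate 2 or Young replicate 3 gave 3 and 0, PI 416937 replicate 3 gave 2 and 1, and Young replicate 2 gave 0 and 1 (all with Al). The inducible nitrate reductases INR1 and INR2 were called higher, but their groups overlapped. INR1 read 5.43, 4.38 and 6.21 in PI 416937 with Al and 4.37, 4.37 and 4.59 in Young with Al (0.90 ± 0.23, adjusted p = 0.00975). INR2 read 5.55, 4.38 and 5.49 in PI 416937 with Al and 4.37, 4.37 and 4.46 in Young with Al (adjusted p = 0.0167), and since the Young mean is under background no size is given. PI 416937 replicate 2 was at background for both. The calls were lost without PI 416937 replicate 3 (adjusted p = 0.126 and 0.11) and without Young replicate 2 (adjusted p = 0.0557 and 0.0748), and that of INR2 also without PI 416937 replicate 1 (adjusted p = 0.139).

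Among 19 phosphate probe sets PHR13 and PHR35 were higher (10.5%, against 5.29% of all tested) and PHR25 lower (5.26%, against 6.12%), by at most 0.91. PHR13, by name a member of the phosphate starvation response factors, differed by 0.63 ± 0.15 (adjusted p = 0.00551), PHR35 by 0.91 ± 0.28 (adjusted p = 0.0345) and PHR25 by -0.41 ± 0.13 (adjusted p = 0.0416). The phosphate list had 0 calls without Young with Al, replicate 2, 1 without PI 416937 replicate 1, and lost the call of PHR25 or PHR35 or both without any Al array but Young replicate 1 (adjusted p from 0.0653 to 0.178). Cell wall genes gave 3 lower calls of 19 (15.8%, against 6.12% of all tested), or 1 without Young with Al, replicate 2. The proline-rich wall protein PRP2, lower by both of its probe sets, read 11.79, 12.19 and 12.74 in PI 416937 with Al and 14.14, 15.17 and 14.50 in Young with Al (-2.37 ± 0.55, adjusted p = 0.00495). PRP1, also on the list of root markers, was lower by -1.06 ± 0.35 (adjusted p = 0.0439), a call lost without any single Al array but Young replicate 1, or without untreated Young replicate 2 or 3 (adjusted p from 0.05 to 0.168).

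No member of the list of Al resistance and organic acid genes was called. The list was built by gene symbol, so genes known only by a locus number are not covered. It held 19 tested probe sets in 13 genes, with 0 higher and 0 lower, a median of 0.0092, and 1 higher and 1 lower at an unadjusted p under 0.05 by limma. STOP1 read 9.27, 9.88 and 9.74 in PI 416937 with Al and 9.96, 9.80 and 10.24 in Young with Al, a difference of -0.37 ± 0.21 (adjusted p = 0.278) between groups that overlap. Probe sets of phosphoenolpyruvate carboxylase, which supplies carbon for malate and citrate, differed by between -0.66 (PEPC17, adjusted p = 0.158) and 0.57 (PPC1, adjusted p = 0.197). Malate synthase MS, of the glyoxylate cycle, read 4.46, 4.39 and 4.39 in PI 416937 with Al and 4.53, 9.07 and 4.64 in Young with Al (-1.67 ± 0.87, adjusted p = 0.231), so its difference came from Young replicate 2. A p above the threshold does not show that these genes were equal.

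**Figure D4:**
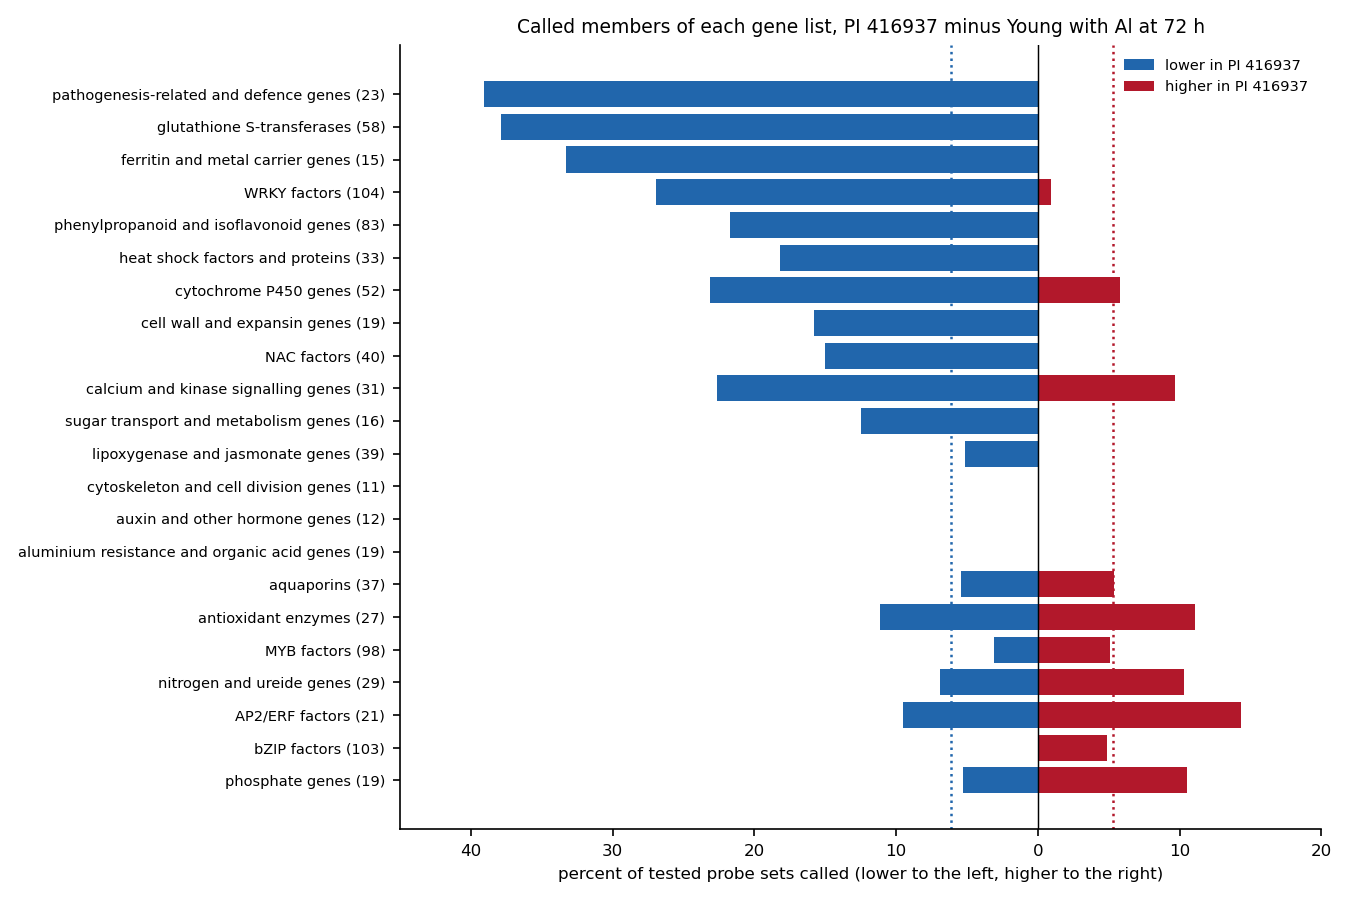
Percent of the tested probe sets of each list (number in parentheses) that were called lower (left, blue) or higher (right, red) in PI 416937 than in Young with Al at 72 h, for lists with at least 10 tested probe sets. Dotted lines mark the same shares over all tested probe sets, 6.12% lower and 5.29% higher. Defence genes (39.1%), glutathione S-transferases (37.9%) and ferritin and metal carriers (33.3%) reach farthest to the left, and 3 lists have no call.

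Several of the lowest differences came from genes without a described function here. Among probe sets of any annotation the lowest fitted difference was that of Gma.6089.1.S1_at, at 5.37, 4.40 and 4.40 in PI 416937 with Al and 12.64, 14.19 and 13.68 in Young with Al (-8.78 ± 1.73, adjusted p = 0.00114). PI 416937 replicates 2 and 3 were under background there, which limits the size of this difference and its rank. LOC100306181 read 6.99, 4.63 and 5.09 in PI 416937 with Al and 12.14, 14.08 and 13.17 in Young with Al (-7.56 ± 1.07, adjusted p = 2.49e-05). LOC100306414 read 4.93, 4.59 and 4.94 in PI 416937 with Al and 10.58, 12.21 and 11.44 in Young with Al (-6.59 ± 0.67, adjusted p = 1.07e-07). In these 3 the groups lay at least 5 log2 units apart. LOC100527097, LOC547527, LOC100527902, LOC100101844 and LOC100806530 were lower by between -7.09 and -5.87, with adjusted p from 4.92e-05 to 0.00183. LOC100306414 differed from the others without Al, where PI 416937 was called higher (2.65, adjusted p = 0.039), a call lost without the array that stood apart (1.64, adjusted p = 0.48). For the 50 named probe sets lower in PI 416937, every PI 416937 array with Al lay below every Young array with Al, which choosing by the test favours. Over all tested probe sets 37.4% had groups with Al that did not overlap in either direction. Of the 35289, 5275 had PI 416937 below Young and 7940 above.

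A second kind of difference was present with and without Al. IF7MaT (Gma.7535.1.S1_a_at), an isoflavone malonyltransferase that makes the storage form of isoflavone glucosides, read 13.71, 12.93 and 13.16 in PI 416937 with Al and 7.22, 7.79 and 7.47 in Young with Al. The difference was 5.77 ± 0.30 (adjusted p = 3.35e-14). Without Al it read 13.72, 13.55 and 12.72 in PI 416937 and 7.40, 8.11 and 7.97 in Young, a difference of 5.50 ± 0.30 (adjusted p = 1.2e-13). The genotype contrasts with and without Al differed by 0.27 ± 0.43 (adjusted p = 0.86). All 6 PI 416937 arrays lay more than 4 log2 units above all 6 Young arrays, the array that stood apart included. Of the 3 tested probe sets of IF7MaT, 1 was called.

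IF7MaT belonged to 41 probe sets, 7 named genes among them, that were called higher in PI 416937 in all 8 genotype comparisons, at 4 times with and without Al. LOC100527900 read 9.21, 9.62 and 9.04 in PI 416937 with Al and 5.96, 5.33 and 5.33 in Young with Al (3.75 ± 0.28, adjusted p = 2.24e-10). LOC100306483 (3.80 ± 0.40), LOC100500552 (3.45 ± 0.29) and LOC100806382 (2.80 ± 0.27) were the next of that group, with adjusted p up to 1.75e-07. LOC100806382 was called by 4 of its 7 probe sets. In each the difference without Al was called as well, at 3.51, 3.64 and 2.74.

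Probe sets with no gene name gave the highest differences. GmaAffx.90868.1.S1_s_at read 12.63, 12.79 and 12.68 in PI 416937 with Al and 4.58, 4.76 and 4.81 in Young with Al (7.98 ± 0.88, adjusted p = 4.01e-07). Without Al its Young replicate 1 stood at 8.93, against 4.51 and 4.61 in the 2 others. Gma.13976.1.S1_at differed by 5.80 ± 0.38 with Al and 5.07 without (adjusted p = 8.46e-12 and 2e-10). The bZIP factor BZIP94 read 6.94, 7.50 and 7.03 in PI 416937 with Al and 4.45, 4.51 and 4.43 in Young with Al (2.69 ± 0.33, adjusted p = 2.48e-06). It lay near background in every Young array of 72 h and differed by 2.64 without Al. LOC100500169 and LOC100797229 were higher by 3.65 ± 0.43 and 3.66 ± 0.44 with Al and by 3.61 and 3.62 without. For the second, 1 of 4 probe sets was called.

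In the opposite direction 18 probe sets, 3 named genes among them, were lower in PI 416937 in all 8 comparisons. LOC100781886 (-1.48 ± 0.20, adjusted p = 7.8e-06), LOC100787821 (-1.58 ± 0.32, adjusted p = 0.00151) and LOC100791047 (-0.75 ± 0.23, adjusted p = 0.0293) were these genes. The call of LOC100791047 was lost without PI 416937 replicate 2 or 3 or Young replicate 1 or 3 with Al (adjusted p from 0.072 to 0.138). LOC100500059 (GmaAffx.92885.1.S1_x_at) was lower in fewer of the comparisons, at 72 h with and without Al, at 48 h with Al and at 12 h without Al. It read 6.84, 6.59 and 6.78 in PI 416937 with Al and 12.88, 13.12 and 13.13 in Young with Al (-6.31 ± 1.19, adjusted p = 0.000778). Without Al it read 7.02, 7.46 and 7.05 in PI 416937 and 13.29, 13.30 and 13.33 in Young (-6.13, adjusted p = 0.0029). At 2 h with Al it averaged 11.56 ± 1.35 in PI 416937 and 13.52 ± 0.02 in Young (SD, n = 2 each).

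**Figure D5:**
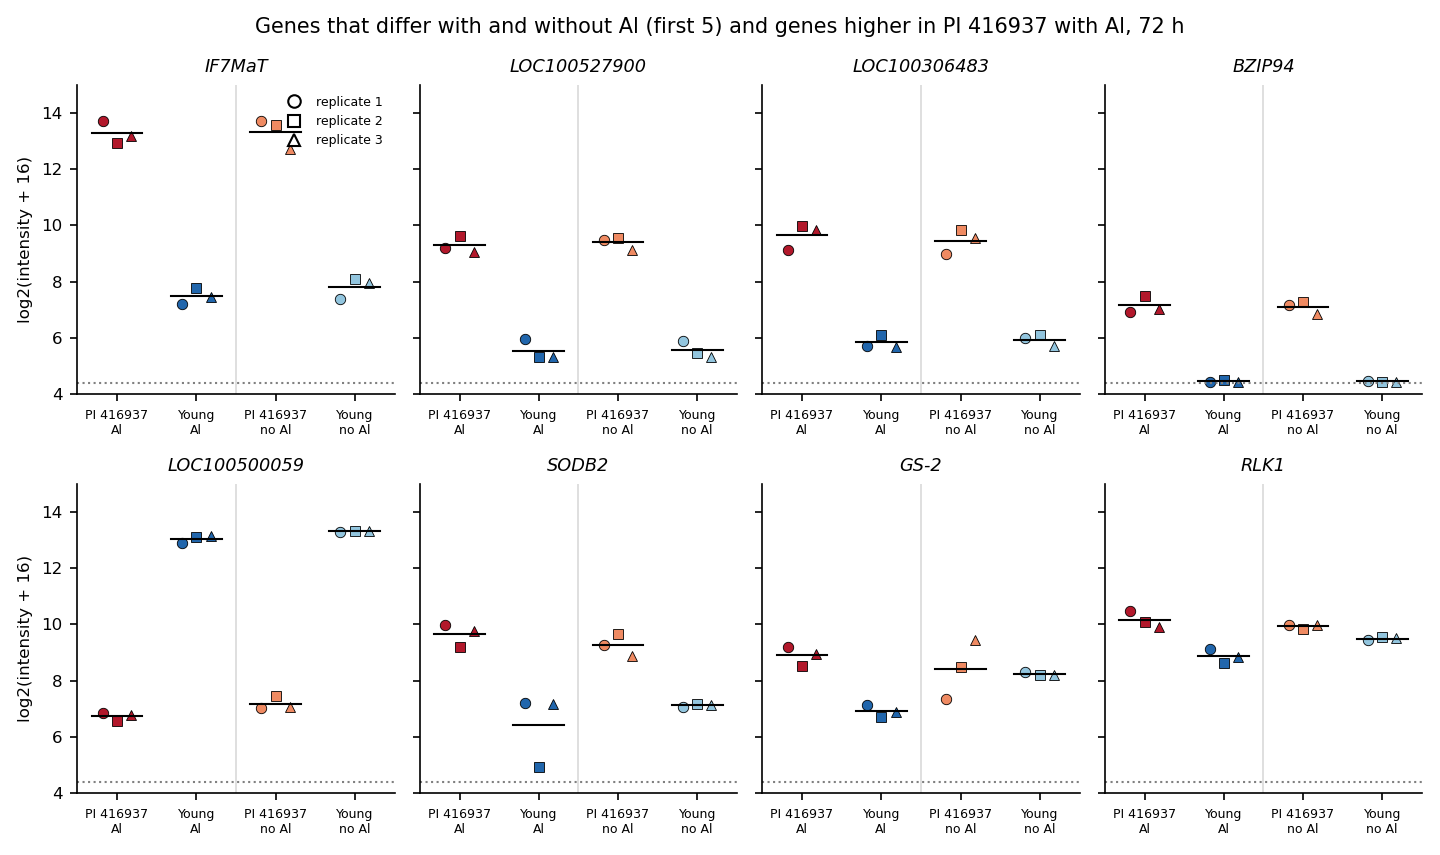
Values of log2(intensity + 16) at 72 h of 5 genes that differ between the genotypes with and without Al (IF7MaT, LOC100527900, LOC100306483, BZIP94 and LOC100500059) and of SODB2, GS-2 and RLK1, with each array as a point (circle, square and triangle for replicates 1, 2 and 3), the group mean as a bar and background at 4.41 as a dotted line. In the first 5 panels the genotypes are apart with and without Al, for IF7MaT at 12.72 to 13.72 in PI 416937 and 7.22 to 8.11 in Young. In the last panels the Young values with Al lie below those of PI 416937 with Al.

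Differences in favour of PI 416937 were also called between the contrasts. Of the 92 probe sets above 0, 37 differed there by at least 2-fold, against 497 of the 513 below 0. LOC100789205 had the highest difference with Al among the 6 named ones, at 9.62, 9.34 and 9.35 in PI 416937 with Al and 8.21, 7.72 and 7.86 in Young with Al (1.50 ± 0.20, adjusted p = 7.38e-06), against 0.42 without Al. LOC100815084 (0.88 ± 0.23) and LOC100805420 (0.77 ± 0.25) were higher with Al and had differences of -0.78 and -0.71 without Al, which were not called. LOC100789772 (0.71 ± 0.13), LOC100305933 (0.81 ± 0.15) and LOC100809384 (0.46 ± 0.07) were the other 3, with adjusted p from 9.54e-05 to 0.000732. The call of LOC100815084 was lost without Young with Al, replicate 2 (adjusted p = 0.0912), and that of LOC100805420 (adjusted p = 0.0457) without any of 4 Al arrays or 3 untreated Young arrays (adjusted p from 0.0523 to 0.339). Only LOC100815084 and LOC100809384 among the 6 named genes of this kind kept the call of the difference without the array that stood apart.

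LOC100306510 and LOC100500540, among the 10 highest, were higher by 3.62 ± 1.09 and 2.99 ± 0.69 (adjusted p = 0.028 and 0.00451). The call of LOC100306510 was lost when any single Al array but Young replicate 1 was left out (adjusted p from 0.0588 to 0.122). That of LOC100500540 was lost without Young replicate 2 (adjusted p = 0.0562).

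The other times gave far fewer calls between the genotypes. With Al, 314 probe sets were called at 48 h (0.89%), 171 higher (0.485%) and 143 lower (0.405%), 326 at 12 h and 657 at 2 h. Without Al, 218 were called at 48 h (0.618%), 136 higher (0.385%) and 82 lower (0.232%). Of the 1868 probe sets higher with Al at 72 h, 130 were also called higher with Al at 48 h, 6.96% of the first list and 76% of the second. Of the 2160 lower ones 106 were also called lower, 4.91% of the first and 74.1% of the second. Among the 82 named probe sets, 6 lower and 11 higher ones were called in the same direction with Al at 48 h. SABATH2, GSTU13, LOC100500059 and the 3 genes lower in all comparisons made up the lower ones.

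Other measures differed between the arrays with Al as well. Light-harvesting and other photosynthesis genes, meant to mark light-exposed tissue, had 0 of 19 probe sets called by limma (6 higher and 0 lower at an unadjusted p under 0.05), and their summed intensity was 12018 to 13454 in PI 416937 with Al and 8567 to 10045 in Young with Al, and 11945 to 12137 in PI 416937 and 9874 to 10049 in Young without Al. CAB3, a chlorophyll-binding protein, read 9.23, 8.80 and 9.45 in PI 416937 with Al and 6.56, 5.82 and 5.89 in Young with Al (3.07 ± 1.04, adjusted p = 0.0525), and 1 of the 19 was at background in each group. Seed markers had 1 of 17 called, the trypsin inhibitor BBI-1 (-2.97 ± 0.70, adjusted p = 0.00523), with sums of 32334 to 43532 in PI 416937 and 34536 to 50268 in Young with Al. Nodule markers had 1 of 12 called, the uricase gene UR2 (-0.89 ± 0.26, adjusted p = 0.0224), with sums of 15715 to 21371 in PI 416937 and 17828 to 35956 in Young with Al, and 4 at background in both. Root markers had 1 of 10 called, with sums of 17184 to 23018 in PI 416937 and 17136 to 20483 in Young with Al. The log2 ratio of the 3′ to the 5′ probe set of the actin control, meant to gauge RNA integrity, was 8.66 to 9.05 in PI 416937 with Al and 8.30 to 8.60 in Young with Al. Without Al it was 8.55 to 8.83 and 8.66 to 8.82. With Al the 5′ intensities were 24.7 to 29.7 and 21.7 to 24.8, and the 3′ ones 11846 to 13104 and 6944 to 9630. The ratio thus differed mainly through the 3′ signal and cannot tell RNA integrity from actin level. The ubiquitin and sucrose binding protein controls read 4.76 to 8.38 in intensity, too dim for a ratio. The part of tissue composition or RNA quality in the differences was not tested, and in such samples fewer cells of a type and less RNA per cell cannot be told apart.

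Probes shared within gene families limit what some of these names mean. Of the 82 named probe sets, 27 have identifiers ending in _s_at, _x_at or _a_at, which mark probes that can match several similar transcripts. Soybean keeps many genes as near-identical pairs from genome duplication, so such a value can be the sum of a pair.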

How the data were processed

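Labelled RNA from each root tip sample was hybridised to 1 Affymetrix soybean array, and the intensities were used as the authors deposited them. How the authors summarised and normalised them is not given in the sources used here. Medians of the 44 arrays differed by at most 0.138 on the log2 scale of log2(intensity + 16). Each array stands for 1 sample, and the number of arrays limits the precision. In R 4.3.3, limma 3.58.1 fitted 16 group means to all 44 arrays (28 residual degrees of freedom, eBayes with trend), with Benjamini-Hochberg adjustment within each contrast over 35289 soybean probe sets. The fit was tested on simulated data. Figures were drawn with matplotlib 3.10.9 in Python 3.11.15.

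The platform table gave 8677 soybean probe sets 1 gene symbol and 370 several, and those with several were left unnamed. Of the first, 8652 were matched by gene ID to RefSeq (Glycine_max_v4.0), used for names only. Lists were searched in symbols and synonyms, and 39 names were left out of them. The counts of the lists depend on that choice. Genes were named by rule among called probe sets with 1 gene: the 10 highest and 10 lowest, up to 3 of each list by p, the 6 highest and 6 lowest also called between the contrasts, the 5 highest and 5 lowest called alike in all 8 genotype contrasts, and the 3 highest and 3 lowest of any annotation. The members, lists and rules were chosen with earlier results of these data known, and the count of a list is no independent support for it. With 3 arrays against 3, an exact two-sided permutation test of a single value cannot go below 0.1. Alternatives were other pseudocounts, filters, quantile normalisation, smaller fits, a replicate block and leaving out arrays.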

Additional observations from a re-analysis of the deposited data

Results flagged for a closer look

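The values here are the genotype difference with Al minus that without Al at 72 h, in log2 units, each called by limma with Benjamini-Hochberg adjustment. In all 605 probe sets were called, 513 below 0 and 92 above. The named ones below 0 were Gma.6089.1.S1_at (-11.73), PR-10 (-10.16), LOC100306414 (-9.24), LOC100527097 (-8.97), LOC100306181 (-8.40), LOC547527 (-8.12), LOC100101844 (-8.09), CYP82A2 (-7.84), CYP82A3 (-7.82), LOC100806530 (-7.19), WRKY30 (-6.81) and LOC100527902 (-6.66). Further ones were GSTU47 (-6.58), SFERH-2 (-6.44), WRKY57 (-6.35), LOC547581 (-5.70), CYP93A1 (-5.39), PR1-7 (-4.72), NAC6 (-4.63), SABATH2 (-4.47), NAC018 (-4.37), MYB73 (-3.76) and LOC100816770 (-3.31). The smallest were EDS1-2 (-2.61), EREBP1 (-2.00), WRKY63 (-1.97) and ERF5 (-1.60). Above 0 were LOC100815084 (1.66), LOC100805420 (1.47), LOC100789205 (1.09), LOC100305933 (0.88), LOC100789772 (0.77) and LOC100809384 (0.60).

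Without the untreated PI 416937 replicate 1, 13 of these 33 named probe sets were still called, 11 below 0 and 2 above. They were Gma.6089.1.S1_at, LOC100306181, LOC100306414, LOC100527902, LOC100806530, WRKY30, WRKY57, WRKY63, SABATH2, SFERH-2, PR1-7, LOC100809384 and LOC100815084. Groups of 3 arrays are too small for a test of outlying values.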

How the results depend on the processing

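The counts of probe sets called between PI 416937 and Young with Al, without Al, and for the difference between these contrasts were 4028, 458 and 605. Fitting only the groups compared gave 1797 and 219 for the first and second, and fitting the 12 arrays of 72 h gave 114 for the third. Leaving out 3 PI 416937 arrays of the series that stand apart, an alternative chosen after seeing the data, gave 143 for the third. Leaving out single arrays gave 1492 to 4601, 277 to 681 and 169 to 1073. With the replicate block the counts were 297, 0 (3032 at an unadjusted p under 0.05 by limma) and 6. Correlations of the deviations of same-numbered arrays from their group means were 0.05, -0.11 and 0.29 with Al for replicates 1, 2 and 3. Differently numbered arrays were not compared, and deviations within a group of 3 depend on each other. These values thus cannot tell whether same-numbered samples were paired. Quantile normalisation put 54.3% of the calls with Al above 0, against 46.4%. Other alternatives with pseudocounts, filters and the variance trend stayed within 1.5 times. Of the 82 named probe sets 0 reversed under the 22 settings, 61 lost the call under the block, 28 with the compared groups fitted alone, 12 with the 12 arrays and 25 without Young with Al, replicate 2. Signal near background in 1 group limits the sizes for genes such as WRKY30, WRKY63, PR-10, PR1-7, SABATH2, LOC100527097, BZIP94, ERF3, INR1 and LOC100809384, and for Gma.6089.1.S1_at.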
